A study of Mus musculus with 8 samples.

Results

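Nephron progenitors of the embryonic mouse kidney with little Smo RNA were compared with progenitors rich in Smo RNA, 4 libraries against 4. The comparison used all 8 RNA sequencing libraries of the series, and its members were the genes that parted every library of one side from every library of the other. The Smo-low side pooled the 2 SmoKO libraries (Smo c/c, both alleles conditional) with the 2 SmoHet libraries (Smo c/+, 1 conditional allele). The Smo-high side pooled the 2 SmoWT libraries (Smo +/+) with the 2 SmoM2 libraries (Rosa26 SmoM2/+ and Smo +/+, called transgenic in the labels). Every library also carried Six2GFPcre, a transgene that makes Cre and GFP in nephron progenitors, so Cre was present on both sides. Cells were isolated at E18.5, late in gestation, by fluorescence-activated sorting. The conditional alleles are deleted, and the SmoM2 allele is switched on, only where that Cre has acted. The study varied the dose of Smo in these cells, and its title concerns what Hedgehog signalling does for their maintenance. Of 24539 genes in the deposited table, 13459 had enough reads to be tested, and 4119 of these both parted the 8 libraries without overlap and differed by the test described below.

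Smo is the membrane protein through which Hedgehog ligands act. Without ligand, the receptor Ptch1 holds Smo inactive and the Gli factors are kept as repressors or in the cytoplasm. With ligand bound, Smo is released, Gli2 and Gli1 activate transcription, and the pathway raises its own regulators Ptch1, Hhip and Gli1. SmoM2 is a mutant Smo that signals without ligand. Nephron progenitors, marked by Six2 and Cited1, renew themselves around the tips of the ureteric bud and form the renal vesicles from which nephrons grow. The bud in turn branches in answer to Gdnf made by the progenitors.

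The sides were not alike in depth or in several technical measures. Listed counts summed to between 4422305 and 7577590 on the Smo-low side and between 9037109 and 10305398 on the Smo-high side, so the deeper sequenced side gives the more precise values. Six2 stood between 1475 and 2105 CPM (counts per 1000000 of the scaled library) on the Smo-low side and between 1132 and 1332 on the Smo-high side. All 20 listed progenitor markers and 6 of 12 immune markers were detected well enough to be tested. The immune list summed to between 95.8 and 182 CPM on the Smo-low and between 35.3 and 58.3 CPM on the Smo-high side. Ptprc, on that list and named after its value was seen, had at most 1 count in any library. By Xist and Y-linked counts, each side held 2 libraries of each sex, but both SmoKO libraries were male and both SmoHet libraries female. The labels name no sequencing batch or date, and a batch that followed the sides cannot be told apart from them. The labels also do not say whether the 2 libraries of a group came from separate embryos, so the p-values measure the spread between these libraries, which may be technical. The first principal component of log2 CPM held 52.0% of the variance and ran from -41.3 to -33.1 on the Smo-low side and from 26.1 to 47.0 on the Smo-high side.

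Over all tested genes, 5850 differed between the sides, which is 43.5% (edgeR quasi-likelihood test, adjusted p under 0.05). Of these, 2956 (22%) were higher on the Smo-low side and 2894 (21.5%) on the Smo-high side. Without regard to the test, 4449 genes (33.1%) showed no overlap, the lowest of 4 libraries on one side lying above the highest of the other. Both criteria held in 4119 genes (30.6%), with 2054 (15.3%) higher on the Smo-low side and 2065 (15.3%) higher on the Smo-high side. A further 330 genes parted the sides without passing the test, and 1731 passed the test although their libraries overlapped. Most of these differences were small. A change of at least 2-fold was seen in 1093 of the 4119 genes (8.12% of those tested), 542 higher on the Smo-low and 551 on the Smo-high side. At 4-fold, 99 were higher on the Smo-low and 167 on the Smo-high side, and at 8-fold 22 and 69. For 4133 tested genes, the 95% confidence interval of the change lay within 1.41-fold in either direction.

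**Figure D1:**
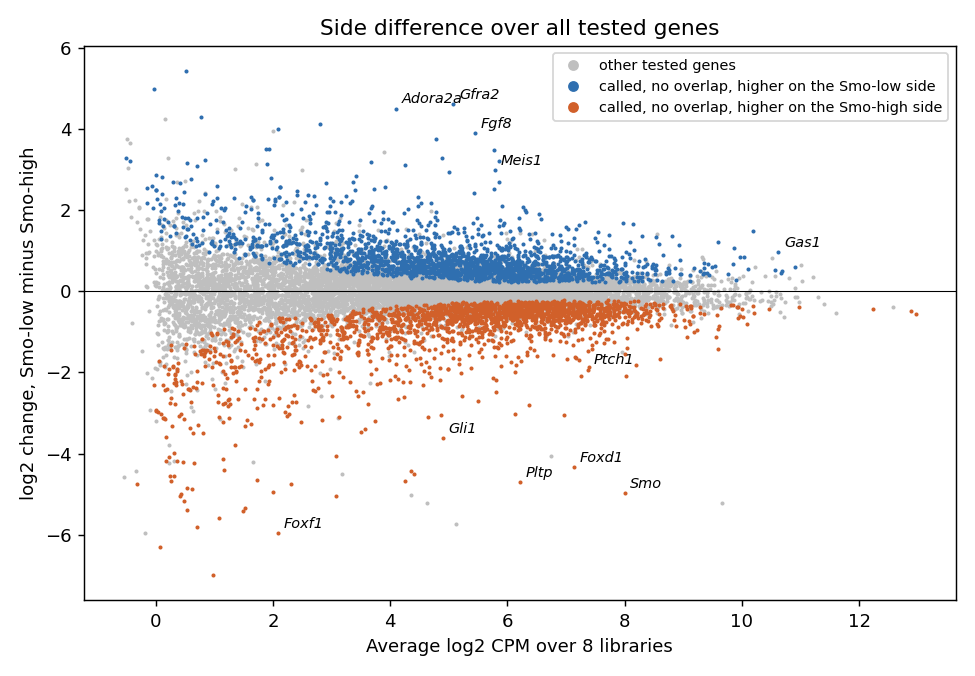
The log2 change between the sides (Smo-low minus Smo-high, vertical axis) is plotted against the average log2 CPM over the 8 libraries (horizontal axis) for the 13459 tested genes, 1 point each. Blue and orange points are the 2054 and 2065 genes called and not overlapping in each direction; the largest changes reach further down, toward the Smo-high side, than up.

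The genes that parted the sides differed in length and base composition, a technical measure that moved with the result. Genes higher on the Smo-low side had a median length of 2388 bases and a median transcript GC content of 53.8%. Genes higher on the Smo-high side had 4327 bases and 46.5%, against 3016 bases and 50.1% over all tested genes. When the trend of each library over length and GC content was removed, 3860 genes met both criteria, and 2774 of the 4119 genes (67.4%) were among them. In 3999 of the 4119 the direction was the same. Depth was tested by thinning all libraries to the smallest total, after which 3648 genes met both criteria and 3410 of the 4119 were among them. A score of 20 genes induced by tissue dissociation also moved with the sides, from 6.54 to 7.22 (mean log2 CPM) on the Smo-low side and from 5.97 to 6.68 on the Smo-high side, with overlap. With this score as a covariate, 904 genes were called, 740 of them among the 4119, and 4045 of the 4119 had the same direction. Among the genes named below, Smo, Ptch1, Gli1, Foxd1, Pltp, Fgf8, Gfra2, Meis1 and Cited1 were called with it, whereas Fgf9, Cdon, Lhx1, Six2, Hoxa11 and Ret were not. Their log2 changes with the covariate were 3.10, 1.23, 0.41, 0.78, 0.77 and -2.12, so that Cdon and Six2 were not smaller than without it, and Lhx1 shrank most. The part of each of these measures in the side differences was not tested further.

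**Figure D2:**
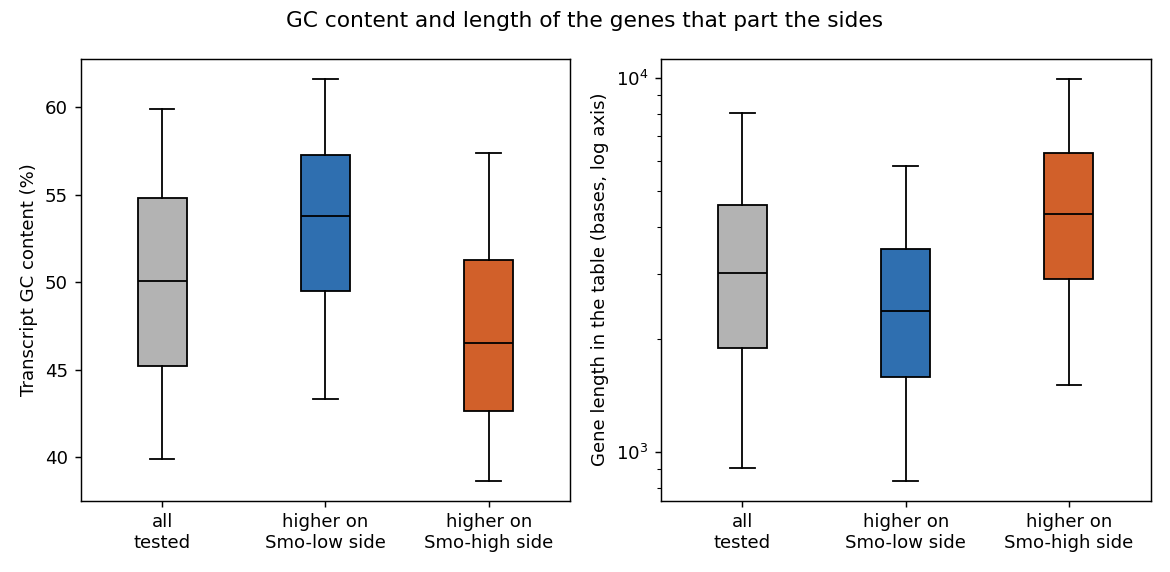
Boxes give the median and quartiles, with whiskers at the 5th and 95th percentiles, of transcript GC content (left, percent) and gene length (right, bases, log axis) for all tested genes and for the genes called and not overlapping in each direction. Genes higher on the Smo-low side sit higher in GC content and shorter in length, with medians of 53.8% and 2388 bases, than those higher on the Smo-high side, with 46.5% and 4327 bases.

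Smo itself stood at 13.1 and 11.1 CPM in the libraries labelled SmoKO and at 14.4 and 23.9 CPM in those labelled SmoHet. It stood at 363 and 375 CPM in the SmoWT and at 605 and 629 CPM in the SmoM2 libraries. The sides were thus far apart, and the libraries labelled SmoHet lay beside those labelled SmoKO although their label gives 1 intact allele. All group names below are therefore those of the labels, and what is said of SmoHet holds for the libraries labelled so. The log2 change was -4.98 (SE 0.15, edgeR adjusted p = 9.65e-09). The sides were pooled with this level known, so it describes them and does not test them. Smo lies on chromosome 6 (mm10, 29735503 to 29761365, plus strand), and a count over the whole gene does not separate reads of SmoM2, a Smo mutant, from those of Smo. Of 21 tested genes from Impdh1 to Cep41 around it, 6 others were higher on the Smo-low side under both criteria and 2 others, Calu and Klhdc10, were lower. Cpa1, a carboxypeptidase gene, was among the higher ones and had the largest change of these neighbours, with a mean of 3.10 CPM against 0.177 CPM. Over all tested genes 30.6% met both criteria, and an effect of the locus was not tested.

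Genes that Hedgehog signalling is known to induce were lower on the Smo-low side in 5 of 6 cases (83.3% called, against 43.5% over all tested genes). The list median was -4.02 (-2.78 with Foxf2, which had no count on that side, set at its bound) against 0.01 over all tested genes. On the Smo-high side, Hhip, Foxf1 and Foxf2 stood mostly in the SmoM2 libraries. The count and the median therefore do not rest on both Smo-high groups alike. The list shares Ptch1 and Hhip with the receptor list and Gli1 with the transducer list. Ptch1, the receptor that restrains Smo, was at 51.4 and 54.6 CPM in the SmoKO, 75.5 and 76.9 in the SmoHet, 155 and 168 in the SmoWT and 377 and 355 CPM in the SmoM2 libraries. Its 4 groups did not overlap, and the side change was -1.93 (SE 0.08, edgeR adjusted p = 1.70e-07). Gli1, a transcription factor that amplifies the signal, was between 2.67 and 5.98 CPM on the Smo-low side, at 33.6 and 28.3 in the SmoWT and at 75.9 and 73.5 CPM in the SmoM2 libraries. Here the SmoKO and SmoHet libraries overlapped, and the side change was -3.62 (SE 0.20, edgeR adjusted p = 5.49e-07). Hhip binds and traps the ligands. It was between 0.340 and 2.18 CPM on the Smo-low side, at 3.17 and 5.45 in the SmoWT and at 62.4 and 77.8 CPM in the SmoM2 libraries, so that the SmoM2 libraries stood far above the other 6 (side change -4.43, SE 0.29, edgeR adjusted p = 2.10e-06).

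Foxf1 and Foxf2, forkhead genes that answer Hedgehog signals in mesenchyme, were all but absent on the Smo-low side. Foxf1 had 2 counts in 1 SmoHet library and none in the other 3, against 0.746 and 0.871 CPM in the SmoWT and 14.5 and 11.1 CPM in the SmoM2 libraries (edgeR adjusted p = 0.000151). Foxf2 had no count in any Smo-low library and a single count in each SmoWT library. Its mean on the Smo-high side was at least 1.33-fold higher than the floor of 3 counts in the shallowest Smo-low library (edgeR adjusted p = 0.0251). That call was lost without SmoHet replicate 1 or 2 and without SmoWT replicate 1 or 2 (edgeR adjusted p between 0.0517 and 0.0761). Foxl1, the remaining target, was at 7.02 ± 2.15 CPM on the Smo-low and 5.73 ± 1.68 CPM on the Smo-high side (n = 4 each) and did not pass (edgeR adjusted p = 0.309).

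Receptors and co-receptors moved in both directions. Gas1, Cdon and Boc help ligands reach Ptch1. Gas1 was between 1761 and 2594 CPM on the Smo-low side and between 990 and 1167 CPM on the Smo-high side, without overlap (log2 0.97, SE 0.09, edgeR adjusted p = 1.81e-05). Cdon was between 61.6 and 96.0 CPM against 28.2 and 41.2 CPM (log2 1.15, SE 0.13, edgeR adjusted p = 5.72e-05). Boc was called higher (log2 0.36, edgeR adjusted p = 0.0216), but its libraries overlapped, and leaving out single libraries, with edgeR adjusted p up to 0.126, ended the call in 5 of 8 cases. With Ptch1, Hhip and Smo lower, 3 of 7 receptor genes rose and 3 fell on the Smo-low side (85.7% called, against 43.5% over all tested genes). The fall of Smo is no result here, since the sides were pooled with its level known. Gpr161, a ciliary inhibitor of the pathway, had a change of -0.06 that did not pass.

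Among 12 genes that carry the signal inside the cell, 3 rose and 2 fell, a share close to the 43.5% called over all tested genes. Gli2, the main activator, was between 1.74 and 3.40 CPM on the Smo-low side, at 8.20 and 14.3 in the SmoWT and at 20.0 and 25.8 CPM in the SmoM2 libraries (log2 -2.58, SE 0.26, edgeR adjusted p = 2.71e-05). Gli1 was the other that fell. Stk36, a kinase of the pathway, rose by 0.84 (SE 0.16, edgeR adjusted p = 0.00190). Prkaca (0.36), a catalytic subunit of protein kinase A, and Evc (0.31), a ciliary partner of Smo, rose less and no longer passed with length and GC trends removed (edgeR adjusted p = 0.0880 and 0.0794). Evc also failed in 5 of 8 fits without 1 library and with DESeq2 (adjusted p = 0.0650). The repressor-forming Gli3 (-0.19, edgeR adjusted p = 0.317) and Sufu (-0.10, edgeR adjusted p = 0.374), which holds Gli proteins back, did not pass. Kif7, a ciliary motor protein of the pathway, parted the sides at -0.29 without passing (edgeR adjusted p = 0.0645), but passed with the trends removed (edgeR adjusted p = 0.00702). Evc2, Adrbk1, Spop and Ulk3 had changes between -0.14 and 0.23 and did not pass. Of 6 genes for the ligands and their processing, 2 had enough reads to be tested. Disp1, which frees ligand from cells, rose by 0.73 (SE 0.12, edgeR adjusted p = 0.000618) with overlapping libraries, and Hhat, which modifies the ligands, had a change of -0.06.

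Beyond the pathway, Pltp, Foxd1, Sfmbt2 and Wfdc1 were among the genes with the largest differences toward the Smo-high side. Pltp, which encodes a phospholipid transfer protein, was at 6.64, 2.39, 4.54 and 6.11 CPM in the SmoKO and SmoHet libraries. It was at 68.3 and 96.0 in the SmoWT and at 196 and 197 CPM in the SmoM2 libraries, with the 3 levels well apart (log2 -4.70, SE 0.21, edgeR adjusted p = 1.70e-07). Foxd1, a transcription factor best known from the renal stroma, was at 12.8 and 3.70, then 22.5 and 14.6, then 197 and 171, and then 385 and 301 CPM from the SmoKO to the SmoM2 libraries. Its side change was -4.34 (SE 0.24, edgeR adjusted p = 5.54e-07). Sfmbt2, a Polycomb group gene, averaged 1.68 ± 1.09 CPM against 37.4 ± 15.3 CPM (n = 4 each, log2 -4.49, SE 0.24). Wfdc1, a secreted protease inhibitor, averaged 0.431 ± 0.362 against 14.3 ± 6.47 CPM. In each of these 4 genes both SmoM2 libraries lay above both SmoWT libraries.

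Many of the strongest differences toward the Smo-high side were in genes with almost no reads on the other. Of the 2065 genes, 61 had at most 3 counts in every Smo-low library, against 4 of the 2054 genes at that floor in every Smo-high library. The Smo-low libraries were also the shallower ones. A floor of 3 counts corresponds to 0.664 CPM on the Smo-low and 0.347 CPM on the Smo-high side. Prss50, a serine protease gene, had no count on the Smo-low side and between 8 and 14 counts in each Smo-high library, at least 1.96-fold above the floor. Nr0b1, a nuclear receptor, had at most 1 count per Smo-low library and between 2.94 and 5.32 CPM on the Smo-high side. Ly6a, Vit, Atp2b2, Grm8 and Kcnj15 had at most 3 counts in any Smo-low library. Ly6a, a surface antigen, averaged 6.13 ± 1.81 CPM on the Smo-high side (n = 4), while Lrrc4c, a neuronal adhesion gene, averaged 7.82 ± 4.58 CPM against 0.298 ± 0.349 CPM.

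**Figure D3:**
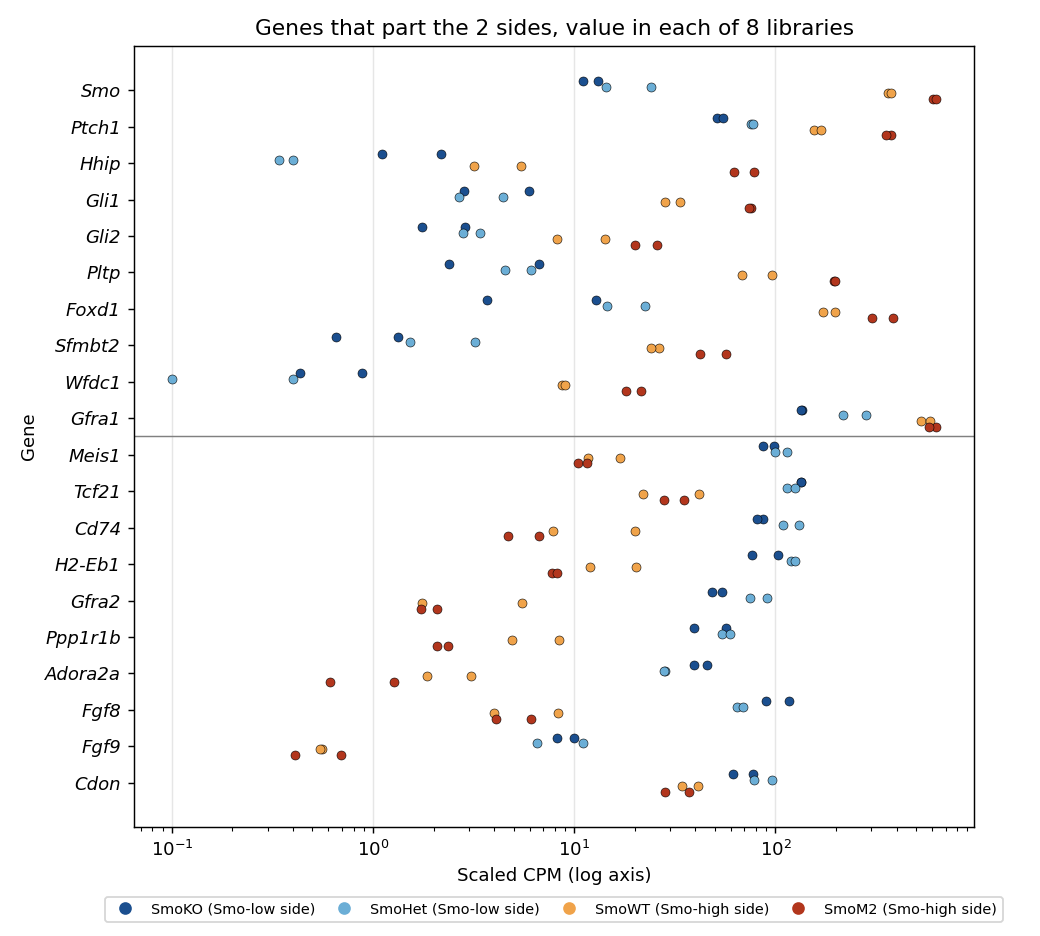
Scaled CPM (log axis) of 20 genes in each of the 8 libraries, 1 point per library, coloured by group (blue shades for SmoKO and SmoHet, orange for SmoWT, red for SmoM2); 10 genes higher on the Smo-high side stand above the line and 10 higher on the Smo-low side below it, and a value of 0 (Wfdc1 in 1 SmoHet library) is drawn at the left edge. In no gene shown do the blue Smo-low points overlap the orange and red Smo-high points, and for Smo the gap runs from 23.9 to 363 CPM.

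Toward the Smo-low side, Gfra2, Adora2a, the transcript 2610507I01Rik, Fgf9 and Fgf8 had the largest changes among the genes above an average log2 CPM of 1 that were called and did not overlap. Fgf8, a fibroblast growth factor of forming renal vesicles, was at 116, 89.9, 64.3 and 69.0 CPM in the Smo-low and at 4.01, 8.28, 4.09 and 6.13 CPM in the Smo-high libraries. The lowest Smo-low value was thus several times the highest Smo-high value (log2 3.90, SE 0.20, edgeR adjusted p = 4.96e-07). Fgf9, which helps keep progenitors from differentiating, was between 6.55 and 11 CPM against 0.409 to 0.693 CPM (log2 3.98, SE 0.32, edgeR adjusted p = 7.18e-06). Gfra2 encodes the co-receptor for neurturin. It was at 48.3, 54.2, 75.1 and 90.5 CPM against 5.50, 1.74, 1.74 and 2.08 CPM, a change of 4.61 (SE 0.24, edgeR adjusted p = 5.16e-07). Its relative Gfra1, the co-receptor for Gdnf, went the other way, from 135, 134, 282 and 215 CPM to 526, 589, 626 and 581 CPM (log2 -1.66, SE 0.10, edgeR adjusted p = 1.54e-06). Ret, the signalling partner of both, was under 0.7 CPM in all Smo-low and between 1.27 and 1.96 CPM in all Smo-high libraries (edgeR adjusted p = 0.0105).

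Adora2a, an adenosine receptor, was at 39.4, 45.9, 28.3 and 27.9 CPM against 3.08, 1.85, 0.613 and 1.27 CPM (log2 4.49, SE 0.21, edgeR adjusted p = 3.46e-07). Ppp1r1b, a phosphatase inhibitor switched by protein kinase A, averaged 52.4 ± 9.12 against 4.43 ± 2.93 CPM (log2 3.75, SE 0.20). Further rises of over 8-fold were seen in 2610507I01Rik, Galnt15, a glycosyltransferase gene, Rxfp3, a relaxin-family receptor, and Pnmt, which makes adrenaline. Cd74 and H2-Eb1, genes of antigen presentation on MHC class II, rose by 3.48 (SE 0.23) and 3.20 (SE 0.16). H2-Eb1 was at 103, 76.8, 119 and 125 CPM against 20.2, 12.0, 7.77 and 8.21 CPM (edgeR adjusted p = 4.96e-07). It belongs to a gene family with similar members, between which reads can be split. Of 6 tested immune markers only Cd74 was called, the list summed to between 95.8 and 182 CPM on the Smo-low and between 35.3 and 58.3 CPM on the Smo-high side, and Ptprc was at or near 0 throughout.

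Meis1 and Tcf21, which are usually taken as stromal transcription factors, were also higher on the Smo-low side, opposite to Foxd1. Meis1 was at 86.4, 98.4, 114 and 99.9 CPM against 17.0, 11.8, 10.4 and 11.6 CPM (log2 2.98, SE 0.13, edgeR adjusted p = 1.70e-07). Tcf21 averaged 127 ± 9.25 against 31.7 ± 8.50 CPM (n = 4 each, log2 2.00, SE 0.17). Over 12 tested stromal markers 3 rose and 3 fell (50% called, against 43.5% over all tested genes). The sum of the stromal list was between 298 and 356 CPM on the Smo-low and between 266 and 522 CPM on the Smo-high side, with overlap. Pdgfra and Pdgfrb, receptors on that list, did not pass. In a bulk library, fewer cells of a type and less RNA per cell cannot be told apart.

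Among abundant genes that parted the sides the differences were smaller. Tril, a Toll-like receptor cofactor, was between 1205 and 2327 CPM on the Smo-low and between 436 and 797 CPM on the Smo-high side (log2 1.48, SE 0.12, edgeR adjusted p = 5.68e-06). Uncx, a homeobox gene, averaged 1253 ± 147 against 605 ± 61.2 CPM (n = 4 each), and Sema3f, a secreted guidance cue, averaged 672 ± 105 against 303 ± 29.6 CPM. Ier2, an immediate early gene, was also among the highest, between 903 and 1202 CPM against 383 to 594 CPM, and belongs to the dissociation list. In the other direction, Slc12a2, a chloride cotransporter, was between 293 and 629 CPM against 974 to 1283 CPM (log2 -1.43, SE 0.12, edgeR adjusted p = 7.58e-06). Fat1, a giant cadherin, averaged 484 ± 180 against 1012 ± 219 CPM, and Foxc1, a forkhead factor, 346 ± 122 against 726 ± 110 CPM. In Slc12a2, Fat1 and Foxc1 both SmoKO libraries lay under both SmoHet libraries.

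Progenitor genes were on balance higher on the Smo-low side. Of 20 tested, 14 rose and 1 fell, with a median of 0.44, and 8 of the 14 parted the sides. The share called was 75%, against 43.5% over all tested genes. Cited1, the marker of the least differentiated progenitors, was at 385, 271, 506 and 372 CPM against 173, 123, 107 and 85.4 CPM (log2 1.67, SE 0.16, edgeR adjusted p = 1.80e-05). Meox1 and Meox2, homeobox genes, rose by 1.24 and 1.78, and Hoxa11, needed for the kidney to form, by 0.98 (SE 0.09). Six2 itself rose by 0.52 (SE 0.10, edgeR adjusted p = 0.00231), but with length and GC trends removed its change was 0.13 and did not pass (edgeR adjusted p = 0.268). Gdnf was the member that fell, by 0.57 on the log2 scale (edgeR adjusted p = 0.00797), with overlapping libraries, and did not pass with the 2 sides as the only groups (edgeR adjusted p = 0.0933).

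Early nephron genes also moved up, 10 of 16 tested (62.5%, against 43.5% called over all tested genes), with none falling and a median of 1.16. The groups of the Smo-low side were not alike, however. Apart from Fgf8, members called together with no overlap were Dll1 and Pax8. Lhx1, a renal vesicle factor, was at 62.2 and 122 CPM in the SmoKO libraries, while the SmoHet libraries, at 4.68 and 9.34 CPM, lay among the Smo-high values of 4.50 to 10.9 CPM. Emx2, another such factor, was at 14.4 and 15.5 CPM in the SmoKO and at 0.134 and 1.19 CPM in the SmoHet libraries. The median of the list was 0.52 without SmoHet replicate 2. Emx2 did not pass the side test without that library (log2 2.08, edgeR adjusted p = 0.130).

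Notch genes, which steer cells within the renal vesicle, rose in 9 and fell in 3 of 18 cases (median 0.50). The share called was 66.7%, against 43.5% over all tested genes. Hey2 and Nrarp, which Notch induces, rose by 2.06 (SE 0.39) and 1.44 (SE 0.19). Heyl, of the same family as Hey2, went down without overlap, from between 81.3 and 110 CPM on the Smo-high to between 11.2 and 18.7 CPM on the Smo-low side (log2 -2.48, SE 0.13, edgeR adjusted p = 5.16e-07). Forkhead genes fell in 8 and rose in 2 of 17 cases (58.8% called, median -0.17), and all 10 parted the sides. Foxn3, a repressor, was the next after Foxd1, Foxf1 and Foxf2, at 11 ± 3.37 against 35.7 ± 5.89 CPM (n = 4 each, log2 -1.75, SE 0.16).

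Genes of the Wnt and BMP pathways were more often lower than higher on the Smo-low side. In the Wnt list 12 of 28 fell and 2 rose (median -0.22), which is 50% called, close to the 43.5% over all tested genes. Rspo3, a secreted enhancer of Wnt signals, was at 7.75, 8.27, 17.1 and 8.32 CPM against 47.5, 57.8, 73.8 and 65.2 CPM (log2 -2.57, SE 0.19, edgeR adjusted p = 3.93e-06). Wnt11, a ligand known from ureteric tips, was between 0.679 and 3.10 CPM against 9.79 and 7.52 in the SmoWT and 24.1 and 34.2 CPM in the SmoM2 libraries (log2 -3.47, SE 0.30). The inhibitor genes Wif1 and Dkk3 fell as well. Collecting duct markers, among which Wnt11 and Ret are counted, fell in 4 of 6 tested cases (66.7% called, against 43.5% over all tested genes). All 4 also parted the sides, against 15.3% of all tested genes called and parting the sides in that direction. The list summed to between 25.9 and 36.3 CPM on the Smo-low and between 41.3 and 75.6 CPM on the Smo-high side. Gata3, 1 of the 14 listed duct markers and named after its value was seen, had at most 2 counts in any library. The part of duct cells in these changes was not tested. In the BMP list 12 of 23 fell and 5 rose (73.9% called, median -0.49). Bmper and Nog, secreted regulators of BMP, fell by 1.66 (SE 0.16) and 1.78 (SE 0.27) on the log2 scale.

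Guidance genes fell in 12 and rose in 5 of 28 cases (60.7% called, against 43.5% over all tested genes, median -0.25). Sema3d, Slit3 and Ephb2 led the falls at -3.04, -1.90 and -1.45. Sema3d was at -3.64 without SmoHet replicate 1. Hox genes rose in 16 and fell in 4 of 32 cases (62.5% called, median 0.32, or 0.16 with length and GC trends removed). Hoxc6 rose by 0.99, while Hoxd9, which patterns the posterior body, fell by 0.91 on the log2 scale. Growth factor receptor signalling was mixed, with 9 rises and 8 falls among 27 genes (63% called), Fgf8, Fgf9 and Gfra2 among the former. Cell cycle genes rose in 16 and fell in 2 of 29 cases (62.1% called, median 0.35). Ccnd3, a cyclin of the entry into the cycle, and Tyms, which makes thymidylate, rose by 0.79 (SE 0.08) and 0.83 (SE 0.12). Cdkn1a, a brake on the cycle, fell by 1.42 on the log2 scale, whereas Cdkn1c, another brake and also a podocyte marker, rose by 0.83. The podocyte markers summed to more on the Smo-low side, as given below.

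Of the cytosolic ribosomal proteins, 41 of 78 were lower and 1 higher on the Smo-low side, 53.8% called against 43.5% over all tested genes. Their median was -0.27, or -0.49 with length and GC trends removed. Rps27 averaged 465 ± 132 against 688 ± 57.6 CPM and Rpl23a 80.2 ± 17.0 against 139 ± 32.4 CPM (n = 4 each). Many of them have near-identical copies, so their counts are uncertain. Respiratory chain genes rose in 32 and fell in 5 of 77 cases, 48.1% called, which is near the share over all tested genes. Ndufa11 and Ndufb2, both subunits of complex I, rose by 0.67 and 0.69. The median of the list was 0.17. That median changed sign to -0.05 with the same trends removed. These lists run over short transcripts, and the part of transcript length and base composition in them was not tested gene by gene.

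Other measures moved with the sides. Of the 20 dissociation genes 14 were higher and 1 lower on the Smo-low side (75% called, against 43.5% over all tested genes). Egr3, an immediate early gene, was at 28.8, 62.7, 84.3 and 55.4 CPM against 6.25, 5.77, 9 and 9.13 CPM. The list summed to between 6252 and 10799 CPM on the Smo-low and between 4120 and 6627 CPM on the Smo-high side. All 4 tested globin genes, of which Hba-a1 and Hba-a2 are near-identical copies, were higher on the Smo-low side, but the list reached only 45.8 CPM there and 7.97 CPM on the Smo-high side. In the endothelial list 2 of 4 tested genes rose, one of which, Cldn5, was at 22.1 and 17.0 CPM in the SmoKO libraries alone and at most 2.07 CPM in the other 6. This list summed to between 46.0 and 77.0 CPM on the Smo-low and between 25.2 and 33.4 CPM on the Smo-high side. Of 8 tested podocyte markers 3 rose and 2 fell, and the list, mostly Cdkn1c, summed to between 339 and 521 CPM against 196 to 311 CPM. Nphs1, on that list and named after its value was seen, had at most 3 counts in any library. Both tested neural crest markers rose, and the list summed to 35.4 to 47.8 against 18.7 to 25.4 CPM. Sox10, likewise on the list and named after its value was seen, had at most 4 counts. The part of stress and of other cells in the side differences was not tested beyond these values.

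The 4119 genes were then examined within each side, where the labelled Smo alleles differ and the side is the same. Both SmoKO libraries were male and both SmoHet libraries female, so genotype and sex cannot be told apart between them. In SmoWT and in SmoM2, replicate 1 was male and replicate 2 female, so sex is part of the spread between the replicates of those groups. Between SmoKO and SmoHet libraries 250 of the 4119 genes (6.07%) were called, against 9.43% of all tested genes, and between SmoM2 and SmoWT libraries 19 (0.461%) were called, against 0.223%. With length and GC trends removed these became 64 and 11 of 3860 genes, and over all tested genes the SmoKO to SmoHet count fell from 1269 to 302. Without SmoHet replicate 1 it was 36. In 3854 genes (93.6%) neither contrast was called. Over all tested genes 9.43% and 0.223% were called in these contrasts, so most of those were called in neither as well. The absence of a call is thus not shown to be particular to the 4119 genes. The median side change of the 4119 was 0.67 in size, with 0.23 between SmoKO and SmoHet and 0.14 between SmoM2 and SmoWT, an order that the choice of genes favours. Over all tested genes the median side change was 0.34 in size. In 71.9% of the genes the SmoM2 mean lay further from the Smo-low side than the SmoWT mean, a share that was 72.3% over the genes selected with length and GC trends removed. In 51.9% the SmoKO mean lay further out than the SmoHet mean, and 46.2% with the trends removed. Of the 19 genes called between SmoM2 and SmoWT, 18 lay further out in SmoM2. Both groups also took part in choosing the genes and setting their side direction, so this count is not independent support. Of the 250 called between SmoKO and SmoHet, 118 lay further out in SmoKO and 132 in SmoHet. The 4 group means rose from SmoKO over SmoHet and SmoWT to SmoM2 in 867 of the 2065 genes (42.0%) and fell in that order in 676 of the 2054 (32.9%). For these orders of means no share over all tested genes is given, so they are not shown to be particular to the 4119 genes.

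Hhip, Foxf1, Kcnj15, a potassium channel gene, and Nell2, a secreted neural protein, had the largest steps from SmoWT to SmoM2 among the 19. Their log2 changes there were 4.03, 3.97, 3.17 and 2.11, with edgeR adjusted p of 8.51e-05, 0.00784, 0.0427 and 0.0125. Ptch1 (1.18), Gli1 (1.27) and Pltp (1.26) followed the same direction and were called. Tnfaip2, induced by tumour necrosis factor, was the mirror image, at 64.2, 85.6, 26.9 and 45.3 CPM on the Smo-low side, 9.41 and 11.7 in the SmoWT and 2.86 and 2.43 CPM in the SmoM2 libraries. Among genes moving between SmoKO and SmoHet, Ano1, a chloride channel gene, was at 9.30 and 8.27 CPM in the SmoKO but 1.20 and 2.21 CPM in the SmoHet libraries, against 9.97 to 28.4 CPM on the Smo-high side. Tmem150c, a membrane protein gene, was likewise lowest in SmoHet, at 1.34 and 2.21 CPM. Ano1 overlapped between the sides once length and GC trends were removed. Genes with p over 0.2 in both contrasts numbered 1756, Fgf9, 2610507I01Rik and Nr0b1 among them. With 2 libraries a group this does not show that they had no step: the SmoM2 to SmoWT change of 2610507I01Rik was 0.47 with an SE of 0.67.

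**Figure D4:**
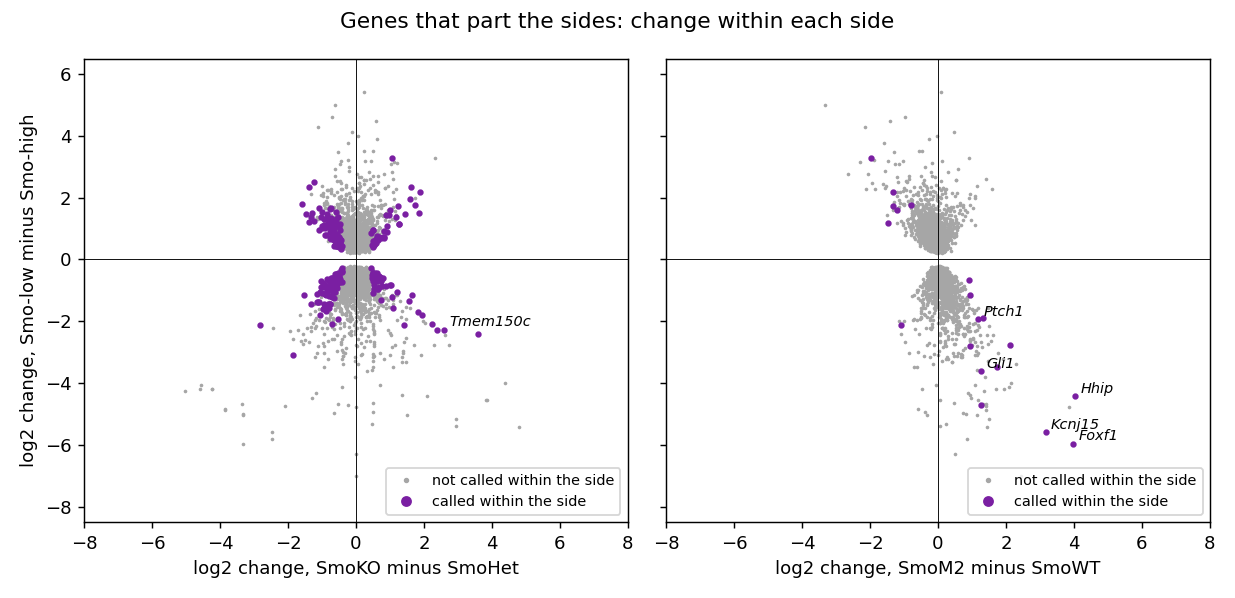
Each of the 4119 genes is a point, with its log2 change between the sides (vertical axis) against its log2 change between SmoKO and SmoHet (left) or between SmoM2 and SmoWT (right); purple points, 250 on the left and 19 on the right, were called within the side. On the right most purple points below 0 lie at positive values, with Hhip at 4.03, and those above 0 lie at negative ones.

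The group pairs across the sides, which share libraries with them, called 3100 genes for SmoKO against SmoWT (23%), 3403 for SmoHet against SmoWT (25.3%), 4372 for SmoKO against SmoM2 (32.5%) and 4529 for SmoHet against SmoM2 (33.7%). Of the 4119 genes, 2307, 2401, 3005 and 2997 were among them.

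The side difference was also looked at in a pair of comparisons that have no library, scaling or dispersion in common. SmoKO against SmoWT, fitted on those 4 libraries alone, called 2612 of 12887 genes (20.3%). SmoHet against SmoM2, fitted on the other 4, called 5117 of 13015 genes (39.3%). They shared 1688 genes, which is 64.6% of the first list and 33.0% of the second, and 1661 of these had the same direction. Across the 12694 genes tested in both, 71.9% had the same sign, and the changes had Pearson's r of 0.679 and Spearman's rho of 0.626, a description across genes, which are not independent replicates. Both comparisons set a Smo-low against a Smo-high group, so depth and any batch that follows the sides are common to them.

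Of the leading genes given here, all but Hhip were called in each of the separate fits. They were chosen from results over these same 8 libraries, and the sides were pooled with the level of Smo known. Their calls here are therefore not independent support. Smo changed by -4.96 (SE 0.20) in the first and -5.01 (SE 0.20) in the second, and Fgf8 by 4.05 and 3.72. Foxd1 changed by -4.51 and -4.18, Tcf21 by 2.04 and 1.94, and Fgf9 by 3.97 and 3.98. Others were larger in the second comparison, in which both groups differ from those of the first. Gli1 changed by -2.84 (SE 0.32) and -4.41 (SE 0.20), Gfra2 by 3.76 (SE 0.35) and 5.44 (SE 0.20), and Cd74 by 2.55 and 4.41. Hhip changed by -7.48 between SmoHet and SmoM2 but did not pass between SmoKO and SmoWT (-1.40, SE 0.52, edgeR adjusted p = 0.0695). Whether the sizes differ was not tested.

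**Figure D5:**
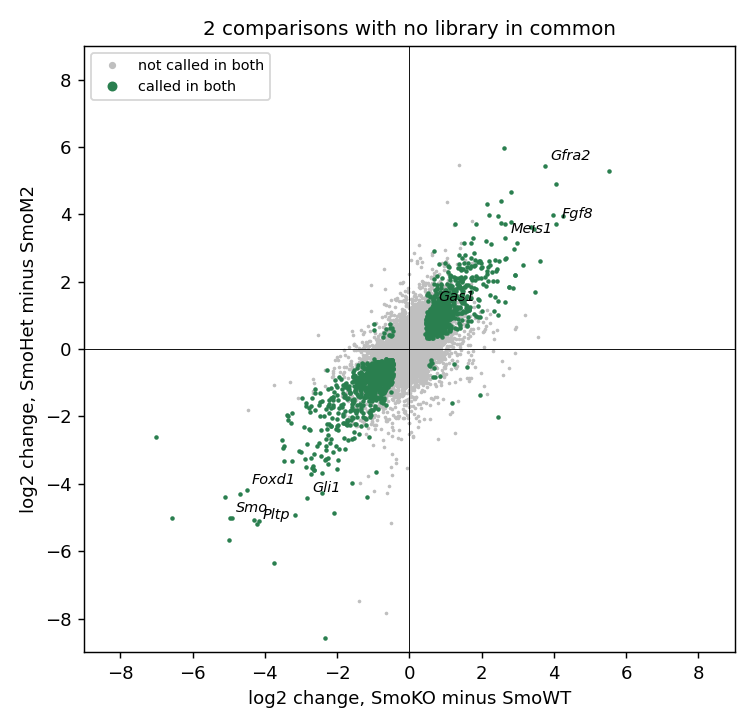
Log2 changes of 12694 genes between SmoKO and SmoWT (horizontal axis) and between SmoHet and SmoM2 (vertical axis), each fitted on its own 4 libraries; green points are the 1688 genes called in both. Nearly all green points, 1661 of them, lie in the quadrants of like sign, with Smo, Foxd1 and Pltp at the lower left and Gfra2 and Fgf8 at the upper right.

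The genes that parted the sides were spread over chromosomes 1 to 19 and X, from 25.4% of tested genes on chromosome 18 to 34.9% on chromosome 10. The balance of directions varied more. On chromosome 7, 201 were higher on the Smo-low and 114 on the Smo-high side, and on chromosome 13 the numbers were 38 and 88. With length and GC trends removed, these became 150 and 146 on chromosome 7 and 45 and 77 on chromosome 13. Chromosome 16 went the other way, from 76 and 56 to 78 and 37.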

How the data were processed

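Polyadenylated RNA of sorted cells was sequenced in 8 libraries, 2 for each of 4 genotypes. The authors' deposited table gives raw read counts per gene and, per the file headers, RPKM values and gene lengths. STAR, Subread, featureCounts and mm10 are named in the submitters' processing notes. Their versions, the annotation and the strand setting are not given in the sources used here, so overlapping and antisense genes cannot be told apart. The deposited RPKM values served only an alternative scaling.

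The fits used edgeR, version 4.0.16, under R 4.3.3 (filterByExpr on the groups, TMM scaling, quasi-likelihood fit with 1 mean per group and 4 residual degrees of freedom). The side contrast is the mean of SmoKO and SmoHet minus that of SmoWT and SmoM2. P-values are two-sided and adjusted by Benjamini-Hochberg over all tested genes at 0.05. DESeq2 1.42.0 served as an alternative. CPM use the scaled library sizes. The floor of a side was set at 3 counts per library and covers counting error only. The script was tested on simulated counts. Sides, lists and named genes were chosen with earlier results of these data known, so no p-value here is independent support for the parting. Named are the Hedgehog lists, the largest changes, the widest gaps, the most abundant, those moving and not moving within sides, and the top members of each list; Xist, Six2, Gdnf, Ptprc, Gata3, Nphs1, Sox10, Pax8, Dll1, Pdgfra, Pdgfrb and the neighbours of Smo were named after their values were seen. Some genes that the rule names are not reported here and were left out of the lists. Positions and GC content are from GENCODE vM21 (GRCm38, the build named mm10), where 98.5% of symbols matched.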

Additional observations from a re-analysis of the deposited data

Results flagged for a closer look

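The 4 values of each side were checked for a single library far from the other 3 in 102 genes, which makes 204 checks. Of these, 13 (6.37%) were flagged, and chance flags about 1 in 20.

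On the Smo-high side, SmoWT replicate 1 stood apart in 3 genes. Gfra2 was at 5.50 CPM there and between 1.74 and 2.08 CPM in the other 3 libraries, Meox2 at 10.35 CPM against 4.79 to 5.73 CPM, and Disp1 at 170 CPM against 112 to 114 CPM. On the Smo-low side, SmoHet replicate 1 was high in Rspo3, at 17.1 CPM against 7.75 to 8.32 CPM, in Sema3d, at 12.2 CPM against 3.48 to 3.99 CPM, and in Klhdc10, a neighbour of Smo, at 327 CPM against 204 to 218 CPM. SmoHet replicate 2 was low in Heyl, at 11.2 CPM against 17.6 to 18.7 CPM, and high in Nog, at 2.89 CPM against 1.77 to 1.96 CPM. It was also high in Evc2, at 69.8 CPM against 51.6 to 54.7 CPM. A single library with 1 or 2 counts against 3 libraries at 0 flagged the remaining genes on the Smo-low side. These were Foxf1 at 0.267 CPM in SmoHet replicate 1, Kcnj15 at 0.170 CPM in SmoHet replicate 2, and Grm8 at 0.218 CPM and Wif1 at 0.435 CPM in SmoKO replicate 2. Apart from Disp1 and Evc2, all of these genes parted the sides in spite of the library that stood apart.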

How the results depend on the processing

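The count of 5850 genes that differed between the sides moved by over 1.5 times in 3 of the alternatives. With the dissociation score as a covariate 904 genes were called, 455 higher on the Smo-low and 449 on the Smo-high side, and the cause was not tested. SmoKO against SmoWT alone called 3100 (1562 and 1538) and SmoHet against SmoWT alone 3403 (1760 and 1643), each of which tests 2 groups of 2 libraries. Leaving out 1 library in turn gave between 4556 and 5497 called genes and between 3742 and 4500 that also parted the sides. Of the 4119 genes, between 3444 and 3828 remained, and 4113 to 4119 had the same direction. DESeq2 called 5221, no count filter 6314, and the RPKM-implied totals 5817, of which 55.7% were higher on the Smo-low side against 50.5%. A minimum of 10 counts in every library, which removes genes at the floor, left 704 genes with a change of at least 2-fold in place of 1093. The 19 genes called between SmoM2 and SmoWT became 42 with DESeq2. In all 20 settings 638 of the 4119 genes were called, and 2359 in all but the dissociation covariate. The correlation of replicate differences was 0.39 between SmoWT and SmoM2, where replicate 1 was male and replicate 2 female. In the other pairs of groups it ran from -0.061 to 0.0997. With the replicate block 6030 genes were called, and 4097 of the 4119 were kept.

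With length and GC trends removed, the list median was 0.18 for receptors (-0.06 without that step), -0.31 for BMP, -0.49 for ribosomal proteins, -0.053 for the respiratory chain and 0.16 for Hox genes. Leaving out 1 library gave list medians from -4.12 to -3.64 for Hedgehog targets, from 0.52 to 1.23 for early nephron genes, from -0.45 to -0.17 for forkhead genes and from 0.077 to 0.28 for growth factor receptor signalling. Of the 102 named genes 90 were called, and 37 of these lost the call with the dissociation covariate, of which 13 had a change as large or larger with it and 3 a change under 0.5 times as large. The sign changed in 7 genes that were not called in the fit of all 8 libraries. With trends removed Gli3 was at 0.14, Gpr161 at 0.18 and Pdgfra at 0.17, and with the dissociation covariate Kif7 was at 0.19, Sufu at 0.028 and Pdgfra at 1.27. Leaving out 1 library gave Gpr161 from -0.17 to 0.035, Hhat from -0.14 to 0.0097, Ulk3 from -0.078 to 0.44 and Pdgfra from -0.58 to 0.30.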
